A study of Mus musculus with 6 samples.

Results

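Regulators of G-protein signalling (RGS proteins) switch off the signals of G-protein-coupled receptors. An activated receptor loads the alpha subunit of a heterotrimeric G protein with GTP, and the RGS domain speeds the hydrolysis of that GTP, which ends signalling by the alpha subunit and by the beta-gamma dimer. In neurons these proteins set how long acetylcholine, opioid, cannabinoid, monoamine and GABA receptors act on adenylyl cyclase, phospholipase C and potassium channels. The genes described here are 10 members of the family: Rgs2, Rgs3, Rgs4, Rgs5, Rgs8 and Rgs16 of the R4 subfamily, Rgs10, Rgs12 and Rgs14 of the R12 subfamily, and Rgs19 of the RZ subfamily. They were picked by symbol from the 24421 genes of the count table, because Rgs4 had risen strongly in the comparison described below. That comparison is therefore a description for the members: no p-value of it is given for them, and counts of members past the threshold support nothing. Of the 10, 7 passed a filter on low counts that left 12820 genes.

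The data are RNA-seq gene counts from Neuro2a, a mouse neuroblastoma line labelled wild type, infected with an adenovirus (ADV) for a control short hairpin RNA (ADV-shCtrl, here shCtrl, n = 3) or for one directed at Fam172a (ADV-shFam172a, here shFam172a, n = 3). All cells were harvested after 48 h of virus, so virus and hairpin expression are shared by the groups, and uninfected cells were not analysed here. The series asks how Fam172a acts in diet-induced obesity, and its title names neurons that make pro-opiomelanocortin, whereas the cells measured here are a tumour line. Each group is 1 line with 1 named hairpin construct, and the labels do not say whether samples came from separate infections, so the spread between them may be technical.

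Gene counts summed to 11250312 to 12820531 in the shCtrl libraries and to 21690467 to 23409319 in the shFam172a libraries, so depth goes with the group. Read pairs that fell in no gene made up 16.4% to 16.6% of all pairs in shCtrl and 17.2% to 17.9% in shFam172a. Pairs dropped for low alignment quality came to 4.46% in shFam172a replicate 3, against 6.65% and 7.12% in replicates 1 and 2. The targeted gene Fam172a was at 18.6, 19.3 and 19.5 CPM (counts scaled to library size with TMM factors) in shCtrl and at 9.22, 8.28 and 9.22 CPM in shFam172a. Of the 18 neuroblastoma and sympathoadrenal markers, 16 were tested, and the list summed to 3077 to 3123 CPM in shCtrl libraries and to 3137 to 3196 CPM with the knockdown. Of these, 8 were called higher and 2 lower, where a call is an edgeR adjusted p under 0.05. Over all genes tested, 36.1% were called, 17.5% higher and 18.6% lower. Markers of fibroblasts, glia, and endothelial and epithelial cells had 4 tested genes in each list, with 1 higher, 1 lower and 1 higher.

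The starts of the coding sequences separate 3 of the members from the rest. Rgs4, Rgs5 and Rgs16 are known for a cysteine directly after the initiating methionine. Once the methionine is removed, this cysteine can be oxidised by the dioxygenase Ado, arginylated by Ate1 and recognised by the Ubr ligases, which makes the proteins short-lived where oxygen is at hand. The first 30 coding bases of these members are shown with the second codon in capitals, together with those of Rgs10, a member without this feature. TGC and TGT are the codons of cysteine. All were read from the GENCODE M21 transcripts of GRCm38. Rgs4 lies at chr1:169747494-169747523 on the minus strand, Rgs5 at chr1:169655578-169655607 on the plus strand, Rgs16 at chr1:153740469-153740498 on the plus strand and Rgs10 at chr7:128418085-128418114 on the minus strand.
Rgs4: atgTGCaaaggacttgcaggtctgccggct
Rgs5: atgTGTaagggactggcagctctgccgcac
Rgs16: atgTGCcgcaccctagccaccttccccaac
Rgs10: atgTTCacccgcgccgtgagccgactgagc
Rgs4 and Rgs5 had the same base at 23 of the 30 positions, Rgs4 and Rgs16 at 13, and Rgs5 and Rgs16 at 15. Of 21484 mouse genes with a complete coding sequence, 195 had a cysteine as second codon in their longest form, 0.908%. Among the 21 Rgs genes with a numbered symbol that were looked up, these 3 were the ones with it. The counts measure RNA, and protein turnover was not measured.

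Rgs4, which acts on Gi/o and Gq alpha subunits and is the member best known from neurons, was the most abundant member in shFam172a and higher there than in shCtrl. The gene (ENSMUSG00000038530.11) occupies chr1:169741477-169747642 of GRCm38 (minus strand), and no annotated gene overlaps its exons. Read counts were 635, 630 and 593 in shCtrl and 2798, 3007 and 2719 in shFam172a. Scaled to CPM, shCtrl stood at 54.4, 49.1 and 52.5, and shFam172a at 130, 129 and 122. The highest shCtrl library therefore stood far below the lowest shFam172a library. The means were 52.0 ± 2.72 and 126.95 ± 4.10 CPM (SD, n = 3), a 2.44-fold difference, and the log2 fold change was 1.29 ± 0.045 (SE). This placed Rgs4 at rank 42 from the top of the 12820 genes tested. With the shFam172a counts thinned to the depth of shCtrl it was again 1.29.

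Rgs5, its neighbour on the chromosome and a widely used marker of pericytes, was low in both groups and nearly absent from the control libraries. The gene (ENSMUSG00000026678.10) occupies chr1:169655501-169695813 on the plus strand, so it runs toward Rgs4, with 45.7 kb between their ends. Its counts were 5, 5 and 0 in shCtrl and 16, 23 and 20 in shFam172a. That is 0.429, 0.389 and 0 CPM against 0.741, 0.986 and 0.899 CPM. The groups did not overlap, but every shCtrl value was under 0.580 CPM, the level that the filter asks of 3 libraries. Rgs5 entered the test only through the shFam172a libraries, and a difference is then built in. The log2 fold change was 1.63 ± 0.51, and it was 1.09 without shCtrl replicate 3, the library with 0 counts, where it no longer passed the threshold. Of 12 pericyte and smooth muscle markers, 7 were tested and 3 of these, Notch3, Acta2 and Mcam, were called higher. Of all genes tested, 17.5% were called higher. The list summed to 89.8 to 94.5 CPM in shCtrl and to 123 to 130 CPM in shFam172a. Mcam held the largest part of this sum, at means of 49.1 CPM in shCtrl and 73.6 CPM in shFam172a. The part of the list in the Rgs5 result was not tested. The pericyte markers Pdgfrb (5.50 ± 0.935 and 5.59 ± 0.443 CPM) and Cspg4 (1.72 ± 0.265 and 1.36 ± 0.362 CPM) were detected and not called, while Kcnj8 had 0 counts in every library and Abcc9 no more than 2. In these bulk samples, a change in the number of cells of a type and a change in RNA per cell cannot be told apart.

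Rgs3, the other R4 member with enough counts to compare, was lower in shFam172a. This gene, which has a long form with a PDZ domain beside its short forms, had counts of 296, 399 and 328 in shCtrl and 489, 504 and 538 in shFam172a. That is 25.4, 31.1 and 29.1 CPM against 22.7, 21.6 and 24.2 CPM. All shFam172a libraries were below all shCtrl libraries, by a gap between 24.2 and 25.4 CPM that is smaller than the spread within shCtrl. The means were 28.5 ± 2.89 and 22.8 ± 1.29 CPM, with a log2 fold change of -0.32 ± 0.073. Rgs3 (ENSMUSG00000059810.18) spans chr4:62559847-62704001 (plus strand) in 36 merged exons. The counts do not separate its forms.

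Rgs2, Rgs8 and Rgs16 were close to the limit of counting. Rgs2, a regulator that prefers Gq, had 2, 0 and 4 counts in shCtrl and 3, 2 and 2 in shFam172a. Rgs8, a regulator of Gi/o best known from cerebellar Purkinje cells, had 1 count in all 6 libraries together, in shCtrl replicate 2. Rgs16, the third member with the cysteine start, also had 1 count, in shFam172a replicate 1. A group total of 0 allows up to 0.0838 CPM for Rgs16 in shCtrl and up to 0.0447 CPM for Rgs8 in shFam172a (3 counts over the group, counting error only). No fold is given for these genes.

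**Figure D1:**
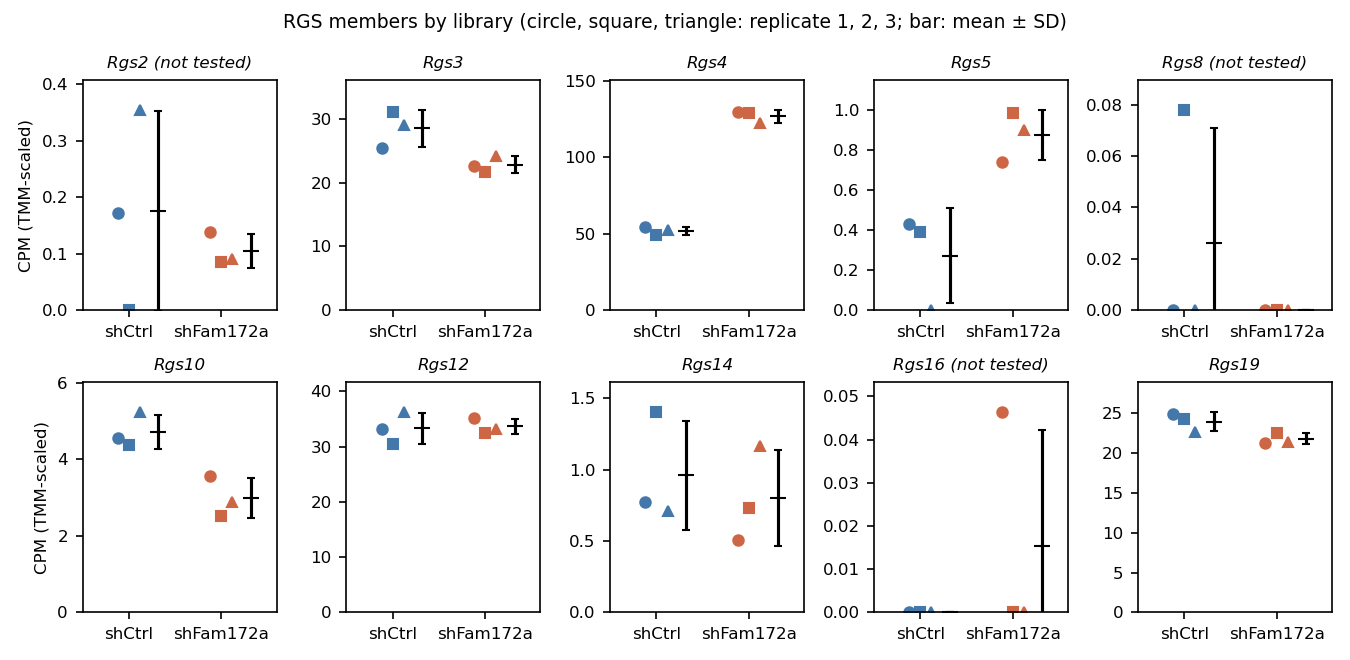
CPM of each of the 10 members in each library, on linear axes that start at 0, with a separate scale per gene; circles, squares and triangles are replicates 1, 2 and 3, and the bar gives mean ± SD (cut at 0). Rgs4 goes from about 52.0 to 126.95 CPM, Rgs10 and Rgs3 are lower in every shFam172a library, and Rgs2, Rgs8 and Rgs16 rest on a few counts.

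The R12 members went in no common direction. Rgs10, the smallest of them, little more than an RGS domain and also known from microglia, was lower with Fam172a knocked down. Its counts were 53, 56 and 59 in shCtrl and 77, 59 and 64 in shFam172a, whose libraries are deeper. That is 4.54, 4.36 and 5.23 CPM against 3.57, 2.53 and 2.88 CPM. The groups did not overlap, and the mean was at 0.635 times that of shCtrl, with a log2 fold change of -0.65 ± 0.18. Values from leaving out 1 library at a time ran from -0.80 to -0.54. Rgs10 (ENSMUSG00000030844.11) occupies chr7:128373621-128418758 on the minus strand. The 10 macrophage and leukocyte markers summed to 0.857 to 1.46 CPM in shCtrl and 1.42 to 1.58 CPM in shFam172a. Ptprc had 0 counts throughout. The list had 1 tested gene, Cd68, which was called higher, as were 17.5% of all genes tested. Cd68 had 7, 3 and 8 counts in shCtrl and 24, 21 and 23 in shFam172a. It passed the filter with the help of the shFam172a libraries, so a difference is partly built in. Tyrobp, not tested, went the other way, at means of 0.449 and 0.269 CPM.

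Rgs12 and Rgs14 carry, beside the RGS domain, Ras-binding domains and a GoLoco motif that holds Gi alpha in its GDP form. Rgs12 was at 33.2, 30.5 and 36.2 CPM in shCtrl and at 35.3, 32.6 and 33.2 CPM in shFam172a. The ranges lay over each other, and the log2 fold change of 0.02 ± 0.064 took the other sign without shCtrl replicate 2 (-0.04) or shFam172a replicate 1 (-0.01). Exons of Rgs12 share 467 bases with Gm43791, an antisense gene on the opposite strand. Rgs14 was low, with 9, 18 and 8 counts in shCtrl and 11, 17 and 26 in shFam172a. Its CPM values overlapped widely, at 0.772, 1.40 and 0.709 against 0.510, 0.729 and 1.17, and its log2 fold change was -0.28 ± 0.37. Without shCtrl replicate 2 it was 0.12. At these counts a change in Rgs14 of the size seen in Rgs3 could not be detected.

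Rgs19, also called GAIP, is a Gi/o regulator that binds the adaptor Gipc1. It was at 24.9, 24.2 and 22.7 CPM in shCtrl and at 21.3, 22.6 and 21.4 CPM in shFam172a. The groups were apart by a small gap, between 22.6 and 22.7 CPM, and the log2 fold change was -0.14 ± 0.071. The partner Gipc1 had means of 64.5 ± 2.14 (shCtrl) and 58.8 ± 1.55 CPM (shFam172a).

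In all, 2 of the 7 tested members were called higher (Rgs4 and Rgs5) and 2 lower (Rgs3 and Rgs10), where 36.1% of all genes tested were called, 17.5% higher and 18.6% lower. The number higher was 1 without shCtrl replicate 3 or shFam172a replicate 2 or 3, with thinned counts and with DESeq2, since Rgs5 was then not called. The libraries of the groups did not overlap for 5 of the 7, against 46% of all genes. Since the comparison also led to the choice of these genes, nothing is read from these shares. The median log2 fold change was -0.14 over the 7 tested members and -0.00030 over all genes tested.

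**Figure D2:**
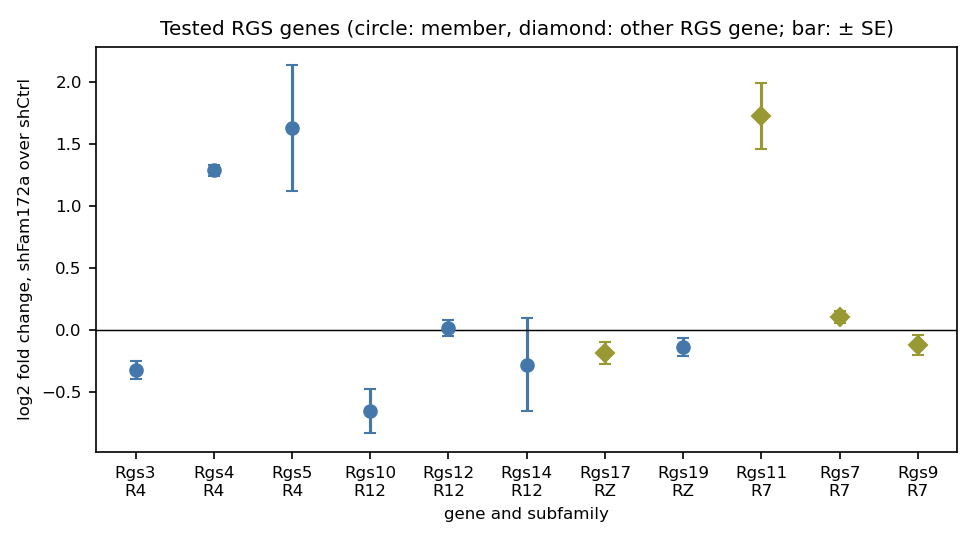
Log2 fold change, shFam172a over shCtrl, ± SE for the 7 tested members (circles) and for the 4 tested Rgs genes outside the set (diamonds), ordered by subfamily. Rgs4 at 1.29, Rgs5 at 1.63 and Rgs11 at 1.73 stand above 0, and the wide bars of Rgs5 and Rgs14 mark genes with few counts. Rgs5 passed the filter only through the shFam172a libraries.

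Levels of different members were compared per kilobase of merged exon within each group. In shCtrl, Rgs4 was highest at 16.8 ± 0.879 CPM per kb, followed by Rgs19 at 10.7 ± 0.520 and Rgs12 at 3.93 ± 0.336 CPM per kb. The ranges of these 3 did not touch over the 3 libraries. Rgs10 at 2.75 ± 0.266 and Rgs3 at 2.64 ± 0.268 CPM per kb came next and could not be put in order, because their ranges overlapped. Rgs14 stood at 0.227 ± 0.0905 CPM per kb, and Rgs5, Rgs2, Rgs8 and Rgs16 were at or below 0.0600 CPM per kb and overlapped one another in that order. The order depends on the length used. With the mean transcript length of each gene, Rgs19 (25.1 CPM per kb) and Rgs4 (24.997 CPM per kb) were nearly equal, and Rgs3 came before Rgs10.

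With Fam172a knocked down, Rgs4 took a larger share of the summed level of the 10 members. Per kilobase of merged exon it made up 46.2%, 43.8% and 45.3% of the summed level of the 10 members in shCtrl, against 69.6%, 70.0% and 68.7% after knockdown. The size of the share depends on the length used. With mean transcript length, an alternative added after the data were seen, it was 28.2%, 26.0% and 26.8% in shCtrl and 50.8%, 51.7% and 49.8% in shFam172a. Of the summed level of all 21 Rgs genes, per kilobase of merged exon, Rgs4 made up less. That share was 32.2%, 30.3% and 32.1% in shCtrl and 54.6%, 54.2% and 53.4% in shFam172a. The other 9 members together, in CPM without regard to length, summed to 89.4 to 94.3 CPM in shCtrl and to 81.1 to 84.2 CPM in shFam172a. These shares follow from the values that chose the members and are a description.

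**Figure D3:**
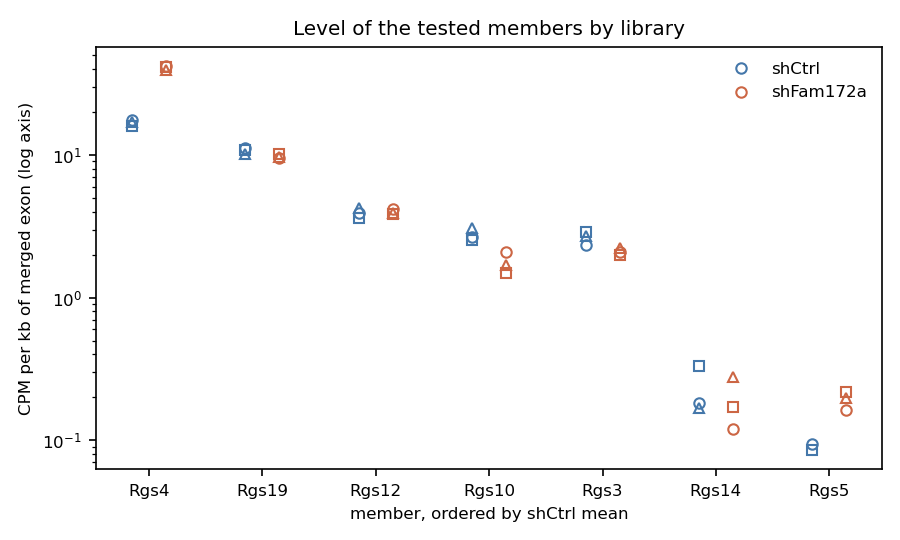
Level of the 7 tested members per library in CPM per kb of merged exon, on a log axis, ordered by the shCtrl mean; the shCtrl library in which Rgs5 had 0 counts cannot be shown on this axis. Rgs4 and Rgs19 are the highest members in either group. Only Rgs4, which led to the choice of members, and Rgs5 have their shFam172a points above all shCtrl points. For Rgs5 a difference is built in, since it passed the filter only through shFam172a. Over all genes tested, 22.5% had their shFam172a libraries above all shCtrl libraries.

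The surroundings of Rgs4 did not share a direction. These genes lie outside the naming rule and were looked up by position, with a start within 1 Mb of that of Rgs4. Of 13 such genes in the count table, 8 were tested, of which 2 were called higher and 3 lower. Over all genes tested, 17.5% were called higher and 18.6% lower. Those called higher include Rgs5, which passed the filter only through the shFam172a libraries. Beside Rgs5, the gene called higher was Uhmk1, a kinase with its start upstream of Rgs4 (at -467.8 kb), at a log2 fold change of 0.41 ± 0.054. Nuf2, a kinetochore protein, lies beyond Rgs5 and was at -0.34 ± 0.038. Hsd17b7, an enzyme of cholesterol synthesis, was at -0.12 ± 0.037 and Olfml2b at -0.64 ± 0.14. Uap1 and Ddr2 were at 0.03 ± 0.041 and -0.02 ± 0.030.

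**Figure D4:**
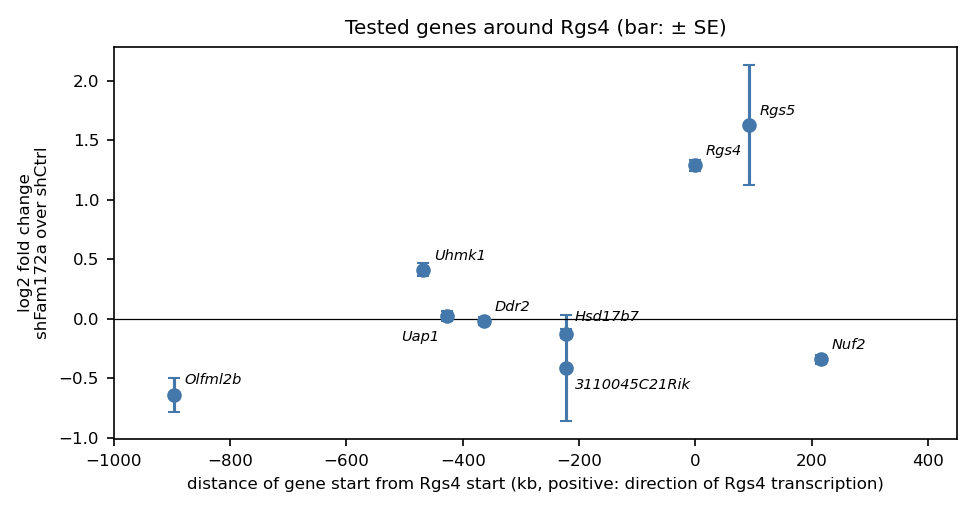
Log2 fold change ± SE of the tested genes within 1 Mb of the Rgs4 start, against the distance of their own start in kb, with positive distances in the direction in which Rgs4 is transcribed. Rgs4 is at 1.29 and Rgs5, which passed the filter only through shFam172a, at 1.63 with a wide bar, while Nuf2, Hsd17b7 and Olfml2b lie below 0 and Uhmk1 lies at 0.41.

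The promoters of Rgs4 and Rgs5 are shown because these members are adjacent and both had higher values in shFam172a. For Rgs5 this rests on few counts, and a difference is built in, since it passed the filter only through shFam172a. Each window holds 250 bases before and 50 after the start site, from RefSeq on GRCm38.p6. They were searched on both strands for ACGTG and GCGTG, the core letters of sites that hypoxia-inducible factors can bind, and matches are in capitals. The Rgs4 window is chr1:169747593-169747892 on the minus strand and the Rgs5 window is chr1:169655251-169655550 on the plus strand.
Rgs4: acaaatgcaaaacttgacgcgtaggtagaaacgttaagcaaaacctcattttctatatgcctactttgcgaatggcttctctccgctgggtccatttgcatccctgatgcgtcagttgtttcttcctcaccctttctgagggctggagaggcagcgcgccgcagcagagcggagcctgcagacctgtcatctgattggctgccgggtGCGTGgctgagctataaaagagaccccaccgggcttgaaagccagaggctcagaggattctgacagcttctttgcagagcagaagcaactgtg
Rgs5: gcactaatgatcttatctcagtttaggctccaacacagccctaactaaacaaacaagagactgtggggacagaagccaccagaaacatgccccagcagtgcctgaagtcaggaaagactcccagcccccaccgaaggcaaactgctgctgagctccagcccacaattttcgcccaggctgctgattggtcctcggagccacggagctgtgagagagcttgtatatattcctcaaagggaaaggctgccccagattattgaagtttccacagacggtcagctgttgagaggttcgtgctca
The Rgs4 window held GCGTG once, 43 bases before the start site, and no ACGTG, and the Rgs5 window held neither. Of all 32851 windows in the table, 32.4% held GCGTG, 19.6% ACGTG and 43.8% at least 1 of them. The 9 members with a window had 15 windows in all, and 7 of these held at least 1 match. By gene, 5 of the 9 had a match in at least 1 window: Rgs2, Rgs4, Rgs8, Rgs16 and Rgs19. Some genes have more than 1 window, so the count by gene does not compare with the share of all windows. A match is a run of letters and not a measured binding site.

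Of the 11 other Rgs genes in the family list, 4 were tested, and 1 of them was called higher and 0 lower, beside 17.5% and 18.6% of all genes tested. Without shFam172a replicate 1, or with upper-quartile scaling, 2 were called higher. In the fit reported here that gene was Rgs11, which belongs to the R7 subfamily and needs the beta subunit Gnb5 for its stability. Its counts were 12, 9 and 12 in shCtrl and 68, 62 and 76 in shFam172a. That is 1.03, 0.701 and 1.06 CPM against 3.15, 2.66 and 3.42 CPM, so each shFam172a library was above each shCtrl library. The log2 fold change was 1.73 ± 0.26 (edgeR adjusted p = 1.7e-06). Its exons share 138 bases with Arhgdig on the opposite strand, and whether counting used strand is unknown here. Arhgdig itself was at 0.10 ± 0.13 (edgeR adjusted p = 0.60).

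The other R7 genes and Rgs17 did not pass the test. Rgs7, the most abundant of them, was at 60.9 ± 1.53 and 65.6 ± 2.49 CPM (log2 fold change 0.11 ± 0.047, edgeR adjusted p = 0.072). Rgs9, known from striatum and photoreceptors, was at 22.9 ± 2.06 and 21.1 ± 1.70 CPM (-0.12 ± 0.078, edgeR adjusted p = 0.24). Rgs17, an RZ member like Rgs19, was at 15.8 ± 0.790 and 13.9 ± 0.594 CPM (-0.19 ± 0.087, edgeR adjusted p = 0.093). The 7 remaining family genes had no more than 7 counts in any library. Gnb5 was at 28.5 ± 2.67 and 29.5 ± 0.908 CPM (0.05 ± 0.067, edgeR adjusted p = 0.59).

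Genes of the wider pathway moved by small amounts in either direction. The 9 lists hold regulators, transducers, receptors and effectors, and also the enzymes that act on the cysteine start, 172 genes in all. Of these, 96 were tested, and 19 were called higher, 11 were called lower and 66 did not pass. Over all genes tested, 17.5% and 18.6% were called higher and lower. The median log2 fold change of the 96 genes was 0.05, beside -0.00030 over all genes tested. Without shCtrl replicate 2, 14 were called higher and 6 lower. Rgs11 was the gene of these lists with more than a 2-fold difference among those called.

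Proteins of other families that carry an RGS domain were called higher in 4 of 14 and lower in 0, beside 17.5% and 18.6% of all genes tested. Arhgef11, a guanine nucleotide exchange factor that G12/13 acts on, was at 0.22 ± 0.044 (edgeR adjusted p = 1.5e-04), the sorting nexins Snx25 and Snx13 at 0.16 ± 0.031 and 0.13 ± 0.049, and the receptor kinase Grk6 at 0.13 ± 0.036. The Snx13 call (edgeR adjusted p = 0.033) was lost without shCtrl replicate 2 (0.12), shCtrl replicate 3 (0.12) or shFam172a replicate 2 (0.12), with thinned counts (0.10) and with DESeq2 (0.13). The arrestins, which bind receptors after these kinases have acted, split. Arrb1 went from 124 ± 9.17 to 165 ± 1.70 CPM (0.42 ± 0.038, edgeR adjusted p = 3.6e-11) and Arrb2 from 69.2 ± 1.25 to 55.1 ± 1.21 CPM (-0.33 ± 0.046, edgeR adjusted p = 3.04e-07). The other arrestin tested, the low Sag, did not pass.

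Among the G alpha subunits of all classes, 12 of 16 were tested and 2 were called higher and 3 lower. Of all genes tested, 17.5% were called higher and 18.6% lower. Gnas, the Gs alpha subunit, was the most abundant at 1079 ± 38.6 and 1156 ± 22.4 CPM (0.10 ± 0.027). Gna13 was at 0.12 ± 0.030, Gna11 of the Gq class at -0.12 ± 0.034, and the Gi subunits Gnai2 and Gnai3 at -0.09 ± 0.032 and -0.09 ± 0.030. The Gnai2 call was lost without shCtrl replicate 2 or 3 or shFam172a replicate 3 (-0.09, -0.09 and -0.06). That of Gnai3 was lost without shCtrl replicate 2 or shFam172a replicate 1 or 2 (-0.06, -0.08 and -0.08). Both calls were also lost with upper-quartile scaling (-0.08 and -0.07) and with DESeq2 (-0.09 and -0.08). The counts for this list are not firm: 5 were called higher and 1 lower with upper-quartile scaling, 4 and 3 with thinned counts or without shFam172a replicate 1, and 2 and 1 without shCtrl replicate 2. DESeq2 also gave 2 and 1.

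Of 17 beta and gamma subunits, 13 were tested, 2 were called higher and 3 lower, beside 17.5% and 18.6% of all genes tested. The largest called changes were those of Gng4 (0.54 ± 0.12, edgeR adjusted p = 4.6e-04), Gng3 (-0.35 ± 0.076) and Gng5 (-0.27 ± 0.046). Gng2 was at 0.13 ± 0.037, and its call was lost without shCtrl replicate 2 (0.11). In the list of RGS anchors, G protein chaperones and GoLoco proteins, 2 of 8 tested genes were called higher and 1 lower. The GoLoco protein Gpsm1 was at 0.16 ± 0.044 and the chaperone Ric8 at 0.13 ± 0.050. Gipc1, the partner of Rgs19, was at -0.14 ± 0.046. The call of Ric8 was lost without shCtrl replicate 2 or 3 or shFam172a replicate 3 (0.14, 0.11 and 0.09). That of Gipc1 was lost without shCtrl replicate 2 or shFam172a replicate 1 or 2 (-0.11, -0.12 and -0.13). Both were also lost with DESeq2 (0.14 and -0.13), and that of Gipc1 with thinned counts (-0.11).

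Receptors of the Gi and Gq classes were called higher in 3 of 21 tested and lower in 0, out of 70 in the list. Of all genes tested, 17.5% were called higher and 18.6% lower. The thrombin receptor F2r was the most abundant at 464 ± 11.2 and 480 ± 9.24 CPM, followed by the cannabinoid receptor Cnr1 at 211 ± 0.0770 and 218 ± 10.6 CPM, and neither passed. F2rl2, a relative of F2r, was at 0.37 ± 0.056 (edgeR adjusted p = 6.9e-06), the GABA-B subunit Gabbr1 at 0.19 ± 0.047 and the adenosine receptor Adora1 at 0.54 ± 0.15. The Adora1 call ended without shCtrl replicate 2 (0.43). Of 12 effectors tested, out of 20, 2 were called higher and 1 lower, and the number higher was 1 without shCtrl replicate 2 or shFam172a replicate 1 or 2 and 3 without shFam172a replicate 3. Phospholipase Plcb3 was at -0.26 ± 0.042 (edgeR adjusted p = 5.2e-06), Plcb4 at 0.14 ± 0.035 and the cyclase Adcy6 at 0.10 ± 0.038. Several named genes share exon bases with a gene on the opposite strand. Among them, Adora1 shares 1162 with Mybph, Arhgef11 991 with Lrrc71, Gnas 988 with Nespas, Gng3 398 with Bscl2, and Ric8 418 with Sirt3. How reads there were counted is unknown here, since it is not given whether counting used strand. The Adcy6 call was lost without shCtrl replicate 1 or 2 or shFam172a replicate 1 or 2 (0.08, 0.10, 0.09 and 0.11), with thinned counts (0.08) and with DESeq2 (0.10).

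The enzymes that act on the cysteine start of Rgs4, Rgs5 and Rgs16 were all expressed. Of the 9, 2 were called higher and 2 lower, beside 17.5% and 18.6% of all genes tested. The dioxygenase Ado was at 82.0 ± 3.78 and 85.5 ± 3.35 CPM (0.06 ± 0.044, edgeR adjusted p = 0.29). Ate1, the arginyltransferase, was at -0.11 ± 0.036 and the methionine aminopeptidase Metap1 at -0.11 ± 0.038. The ligase Ubr4 was at 0.17 ± 0.030, and Ubr1 and Ubr2 were at 0.03 ± 0.043 and 0.00 ± 0.033. The call of Ate1 was lost without shCtrl replicate 2 or shFam172a replicate 2 (-0.11 and -0.10). That of Metap1 was lost without shCtrl replicate 1 or 2 or shFam172a replicate 2 (-0.09, -0.11 and -0.11), and with DESeq2 (-0.11).

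**Figure D5:**
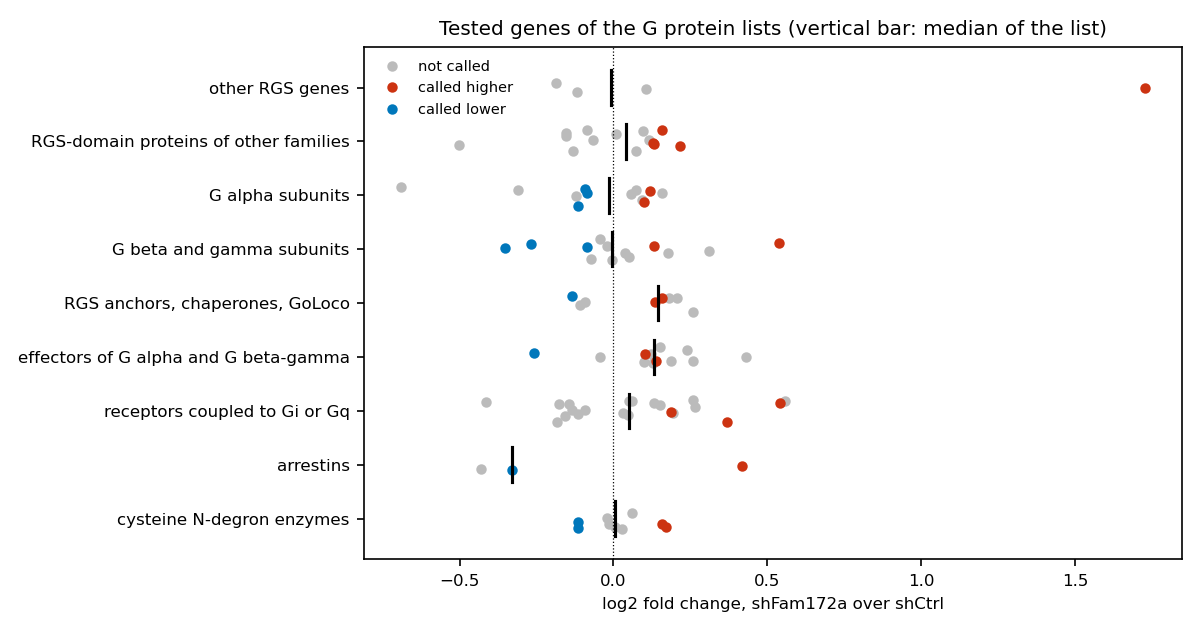
Log2 fold change, shFam172a over shCtrl, of the tested genes in each of the 9 lists, which are those of the G protein pathway and that of the enzymes acting on the cysteine start. Each point is 1 gene, red and blue points were called higher and lower, and the vertical bar is the median of the list. Most genes lie near 0, and Rgs11 at 1.73 is the point farthest from it.

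The genes whose levels followed those of Rgs4 most closely over the 6 libraries were, in this order, Unc13a, Mgarp, Gpi1, Gys1 and P4ha1. The measure was Pearson's r of log2 CPM among 11382 genes with a mean of at least 2 CPM, and r was 0.9997 for Unc13a and 0.9992 for P4ha1. The libraries form 2 groups, so r mostly tracks the difference between them, and 794 genes had an r above 0.95. The log2 fold changes were 0.47 ± 0.028 for Unc13a, a protein of synaptic vesicle priming, 0.88 ± 0.045 for Mgarp, a mitochondrial protein, and 0.68 ± 0.028 for Gpi1 of glycolysis. Gys1, the glycogen synthase of muscle and most other tissues, was at 1.12 ± 0.038, and P4ha1, a collagen prolyl hydroxylase subunit, at 0.81 ± 0.032.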

How the data were processed

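Gene counts of 6 Neuro2a libraries were analysed. The deposited values are raw counts of read pairs per gene symbol. The submitters' processing notes name HISAT2 2.0.5, HTSeq and mm10. Which annotation was counted, and whether by strand, is not given in the sources used here. Each sample's own table was identical to its column of the joint table. The 5 entries without a gene (16.4% to 17.9% of pairs in no feature, 9.58% to 10.4% aligned more than once) entered neither library sizes nor tests.

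Genes were filtered with filterByExpr by group, normalised with TMM factors and tested in edgeR 4.0.16 (R 4.3.3) by the quasi-likelihood test (glmQLFit, robust, then glmQLFTest, two-sided), with group as the only term. P-values were adjusted by Benjamini-Hochberg over 12820 genes, and a gene was called at an adjusted p under 0.05. The script was tested on simulated data. Log2 fold changes compare shFam172a with shCtrl, and the SE was obtained as the absolute log2 fold change over the root of the F statistic. Replicates differed by more than sampling noise (chi-square per degree of freedom of 1.61 to 2.84 within groups), so each counted as 1 sample. Lengths, positions and overlaps come from GENCODE M21 and promoters from RefSeq.

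The members and gene lists were chosen with earlier results of these data known. All members are named. Of each pathway list, up to 4 called genes of largest change with a mean of at least 2 CPM are named, and for receptors and alpha subunits also the 3 most abundant. A gene that this rule picks is not reported here. The alternatives were RLE and upper-quartile scaling, no filter, DESeq2 1.42.0, thinned counts, a replicate block and leaving out each library, and mean transcript length for levels per kb.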

Additional observations from a re-analysis of the deposited data

How the results depend on the processing

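Scaling, filter, test, depth, replicate block and libraries were varied 1 at a time, in 12 settings. Rgs4 was between 1.25 and 1.32 on the log2 scale, Rgs3 between -0.40 and -0.25, and Rgs10 between -0.80 and -0.54. Fam172a was between -1.13 and -1.05 and was called in all 12. Rgs5 lay near the level that the filter asks. It was tested in 9 of the 12, with values from 1.09 to 2.05, and fell under the filter with thinned counts and without shFam172a replicate 2 or 3. Its call was lost without shCtrl replicate 3, and DESeq2 gave it no adjusted p. The number of members called higher was therefore 1 with DESeq2 and 1 with thinned counts, and 1 to 2 when 1 library was left out. DESeq2 called 7 pathway genes lower in place of 11, and leaving out 1 library gave 6 to 11. The causes of these shifts among pathway genes were not tested. Of 523 values for 44 named genes, 480 kept their direction and side of the threshold, 39 lost the call, and 4 moved otherwise: Rgs12 took the other sign in 2 settings and Rgs14 in 1, none of them called, and Rgs5 had no adjusted p in 1. No called value changed sign. The median over all genes moved by no more than 0.020 in any setting.

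The replicate number was also fitted as a replicate block. It gave 2150 genes higher and 2318 lower, in place of 2241 and 2386, with 2 members higher and 2 lower as before. Deviations of libraries with the same number correlated at -0.0054, -0.0038 and -0.0096, so no pairing by number was seen. With 3 libraries per group this cannot exclude that samples were paired, and the labels do not say.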
